A study of Mus musculus with 12 samples.

Results

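The comparison set 3 mice in which dnEGFR, an epidermal growth factor receptor that acts as a dominant negative, was placed under Sox10-tTA against 3 littermates that carried only the responder transgene. These 6 libraries of the 12 in the series were chosen by their labels, and all loci of the expression table that carry a gene symbol were considered, 31943 of 33864. The mutants had the genotype Sox10-tTA;TRE-dnEGFR and the controls TRE-dnEGFR, so both groups carried the responder and only the mutants carried the transactivator tTA, which the Sox10 driver places in cells of the oligodendrocyte lineage. Both groups received doxycycline from postnatal day 21 to day 35 and were sampled at postnatal day 35 (P35). The 6 other libraries, used here for reference, came from Sox10-tTA;TRE-ErbB2V664E mutants and TRE-ErbB2V664E littermates given doxycycline from postnatal day 21 to day 30 and sampled at P30. ErbB2V664E is an activated form of the receptor ErbB2. Mice with Sox10-tTA and no responder were not among the groups, so effects of tTA and of the dnEGFR protein cannot be told apart. The labels do not say whether doxycycline switched the transgene on or off.

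ErbB receptors are tyrosine kinases of the cell surface that bind epidermal growth factor, neuregulins and related ligands, act in pairs, and signal through Ras, ERK and PI3K. An EGFR that can bind ligand and pair but cannot signal blocks the receptors it pairs with. Oligodendrocytes, the myelin-forming cells of the central nervous system, arise from precursors that keep dividing in the adult white matter, and ErbB signalling is known to take part in their growth and in myelination.

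The tissue was a piece of subcortical white matter, 1 library per mouse, and values are FPKM (fragments mapped to a gene, scaled for transcript length and library size). The 6 libraries held an estimated 18368737 to 24739605 fragments each, so that 1 FPKM in a transcript of 2 kb stands for 36.7 to 49.5 fragments. Myelin genes were abundant in all 6, with Mbp (myelin basic protein) between 426.6 and 608.2 FPKM. Neuronal markers were present too (Snap25, a synaptic vesicle fusion protein, at 74.2 to 239.8 FPKM), as was Ttr, a gene of the choroid plexus, at 17.5 to 699.2 FPKM. The peripheral myelin gene Pmp2 was listed at 0 in 5 of the 6 libraries. Correlations of log2(FPKM + 1) ran from 0.910 to 0.917 between libraries of a group and from 0.906 to 0.914 between mutants and controls. Among loci with a mean of at least 5 FPKM, the highest library was over 3 times the lowest in 7.0% of loci in controls and 7.4% in mutants, so uneven replicates are common.

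Few genes separated mutants from controls. Of 13803 loci tested with limma on log2(FPKM + 1), 13 passed a Benjamini-Hochberg adjusted p of 0.05 (called, below), which is 0.0942% of the loci tested. Of these, 8 were higher in mutants (0.058%) and 5 were lower (0.0362%), and 12 carried a symbol, 7 higher and 5 lower. With litter as a block in the model of the 12 libraries, 3 loci passed, all higher, of which 2 were among the 13. With the block in the 6 dnEGFR-line libraries alone, 0 passed. Values given below with litter as a block are from the 12 libraries unless the 6 are named. The 7 higher were Mgat2, Slc25a23, Arl6ip1, Rpl30-ps9, Mettl21a, a locus that joins B3gnt2 and Commd1, and a second locus of Fancl. The 5 lower were Cdk7, Mir124a-1hg, Pdyn, Sfxn3 and Klk6. At an unadjusted p of 0.05, 452 loci were higher (3.27%) and 334 lower (2.42%). The 3 mutants and 3 controls did not overlap, with mutants higher, in 770 loci (5.58%) and with mutants lower in 631 (4.57%). The median change over all loci tested was 0.01 on the log2 scale, with a median standard error of 0.16. Changes below are differences of log2(FPKM + 1), a scale that makes changes of low genes look smaller than they are.

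**Figure D1:**
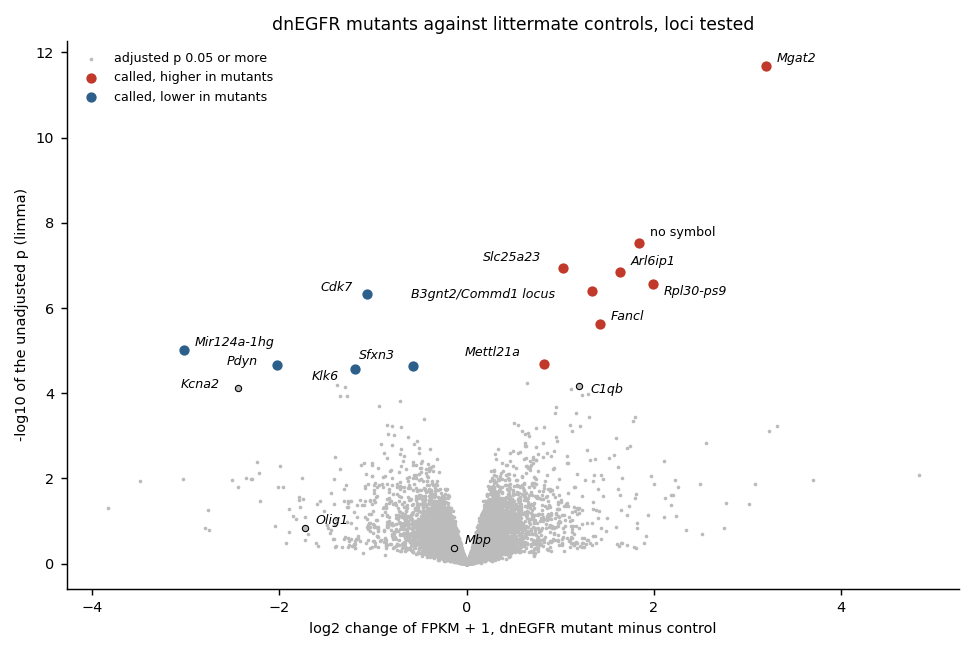
Each point is 1 of the 13803 loci tested, placed by its log2 change (dnEGFR mutant minus control, x axis) and by the -log10 of its unadjusted limma p (y axis). Red points are the 8 loci called higher and blue points the 5 called lower, and outlined grey points are genes described in the text that were not called. Mgat2 stands at the top with a change of 3.20, which rests on controls listed at 0, while Mbp lies near the origin.

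Klk6, a secreted serine protease of the kallikrein family that is abundant in mature oligodendrocytes, fell in the mutants. Its level was 1.47, 1.86 and 1.94 FPKM in mutants 1 to 3 and 5.16, 5.43 and 5.29 FPKM in controls 1 to 3. The groups did not overlap, and each mutant lay below its own littermate. The mean fell from 5.29 ± 0.13 to 1.75 ± 0.25 FPKM (SD, n = 3 each), 3.02-fold lower, with a log2 change of -1.20 ± 0.17 (SE) and a limma adjusted p of 0.0293. With litter as a block the adjusted p was 0.115, without a filter on low values 0.0714, with a pseudocount of 0.1 0.0753 and with a filter of 5 FPKM 0.192. Klk6 was also lower in ErbB2V664E mutants than in their controls (log2 change -2.09, limma adjusted p = 0.000587), and the difference between both effects did not pass (adjusted p = 0.352). In bulk tissue, fewer cells of a type and less RNA per cell cannot be told apart.

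Klk6 lies at chr7:43824499-43832030 on the plus strand and Pdyn, a called gene treated below, at chr2:129686565-129699844 on the minus strand (GENCODE M21, GRCm38, matched by transcript identifier). Their promoter windows, 250 bases before to 50 after a transcript start, are printed as a description. SOX motifs were marked since the transactivator was driven by Sox10, and regulation of either gene by a SOX factor was not tested. Promoters of Cdk7, Mir124a-1hg and Sfxn3, which were also called lower, were not searched. Both strands were searched for ACAAAG and ACAATG, short motifs of the SOX family, and matches are in capitals. RefSeq (GRCm38.p6) lists 2 windows for each gene. The first window of Klk6 is chr7:43824294-43824593, plus strand, and holds 2 matches, while the second window of Klk6 holds 0. For Pdyn the window shown is chr2:129699889-129700188, minus strand, with 1 match on the opposite strand, and the other Pdyn window holds 0. Of 32851 windows of this length, 9394 (28.6%) hold at least 1 match. That share is per window, while each gene had 2 windows and the one with a match is shown. The letters thus describe these promoters and name no site of binding.
Klk6 promoter, window 1: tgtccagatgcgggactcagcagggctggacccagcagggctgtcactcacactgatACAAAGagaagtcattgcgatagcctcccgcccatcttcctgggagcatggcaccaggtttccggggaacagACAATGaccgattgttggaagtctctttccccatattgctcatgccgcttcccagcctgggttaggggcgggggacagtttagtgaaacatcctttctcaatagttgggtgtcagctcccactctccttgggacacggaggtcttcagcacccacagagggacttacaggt
Pdyn promoter, window 2: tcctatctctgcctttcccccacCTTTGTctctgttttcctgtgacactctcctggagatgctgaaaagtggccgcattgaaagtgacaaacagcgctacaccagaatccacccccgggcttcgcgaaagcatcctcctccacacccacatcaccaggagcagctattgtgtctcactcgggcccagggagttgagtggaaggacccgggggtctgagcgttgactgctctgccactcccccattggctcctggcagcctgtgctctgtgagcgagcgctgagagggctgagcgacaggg

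The list of kallikreins and serine protease inhibitors held 10 tested members, of which Klk6 was the 1 called. Serpinb1a, an inhibitor of serine proteases that is enriched in mature oligodendrocytes, had 3.47, 3.76 and 4.57 FPKM in mutants and 5.77, 6.33 and 9.32 FPKM in controls. The groups did not overlap, but the change of -0.70 ± 0.20 (SE) did not pass (limma adjusted p = 0.557). Serpinb1a was also lower in ErbB2V664E mutants than in their controls (change -1.37, limma adjusted p = 0.0246). The difference between both effects did not pass (adjusted p = 0.523). Serpine2 and Serpina3n, inhibitors made by glia, had changes of 0.33 and 0.04 with overlapping groups.

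Genes of mature myelin gave no call and leaned slightly to lower values. Of the 38 tested members, 33 had a negative and 5 a positive change, and the median was -0.15, beside 0.01 over all loci tested, of which 51.4% were positive. Without control 3 this median was -0.01 and without control 2 it was -0.23. Mbp measured 536.3, 426.6 and 486.9 FPKM in mutants and 484.0, 500.1 and 608.2 FPKM in controls, and the groups overlapped. Mog, a protein of the outer myelin surface, had 19.9, 23.3 and 20.5 FPKM in mutants and 20.8, 26.6 and 29.6 FPKM in controls, again overlapping. Limma gave adjusted p-values of 0.998 for Mbp and 0.997 for Mog. The summed level of the list was 1627 to 1888 FPKM in mutants and 1697 to 1993 FPKM in controls.

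Within the myelin list, 2 members had an unadjusted p under 0.05, both lower, beside 2.42% of all loci tested. Gsn, the actin-severing protein gelsolin, had 9.53, 9.07 and 8.45 FPKM in mutants and 14.8, 14.6 and 16.5 FPKM in controls. Every mutant lay below every control, with a change of -0.70 ± 0.17 (SE) and a limma adjusted p of 0.394. Gsn was also lower in ErbB2V664E mutants than in their controls (change -1.30, limma adjusted p = 0.0159). The difference between both effects did not pass (adjusted p = 0.515). Hapln2, a link protein of the matrix at nodes of Ranvier, had 7.13, 4.90 and 6.09 FPKM in mutants and 8.54, 9.42 and 14.1 FPKM in controls at a locus joined with Apoa1bp. These groups did not overlap either, and the change was -0.71 ± 0.18 (adjusted p = 0.457), beside -0.04 in the ErbB2V664E line. Some members were uneven within a group: Ermn, a cytoskeletal protein of late oligodendrocytes, read 42.5, 30.9 and 37.97 FPKM in mutants but 2.75, 2.36 and 40.4 FPKM in controls, and Cldn11, the tight junction protein of myelin, read 143.3, 119.4 and 34.1 FPKM in mutants and 37.75, 31.9 and 44.99 FPKM in controls.

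**Figure D2:**
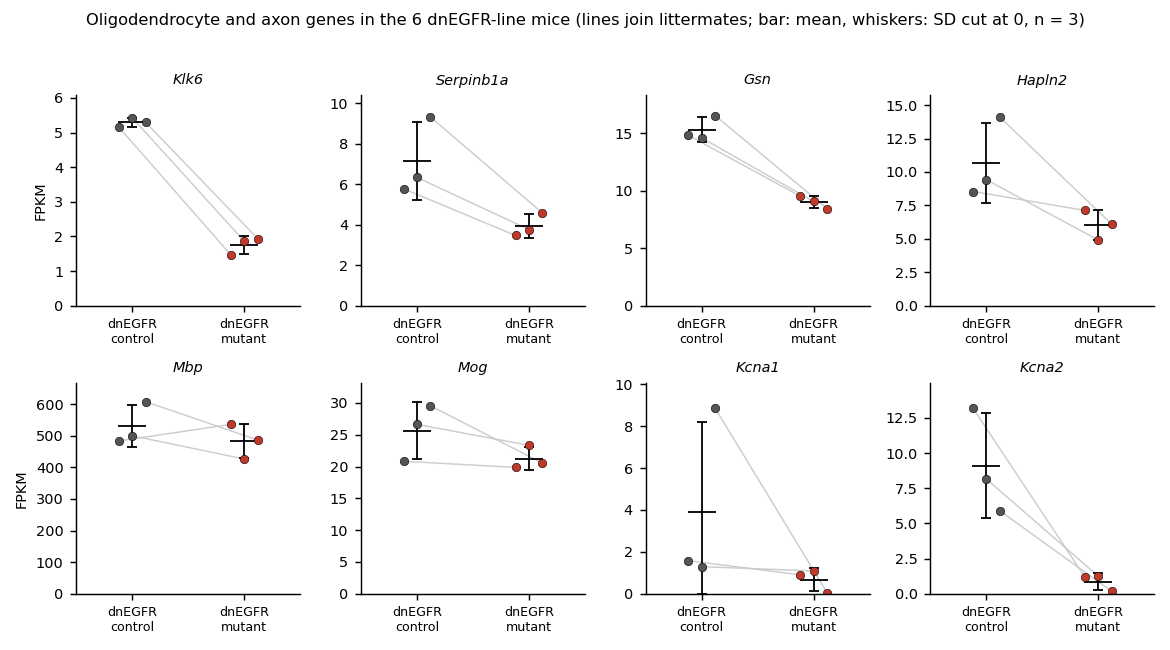
FPKM (y axis, from 0) of 8 oligodendrocyte and axon genes in the 3 controls (grey) and 3 mutants (red) of the dnEGFR line; bars are means, whiskers 1 SD cut at 0, and thin lines join littermates. Klk6, Serpinb1a, Gsn, Hapln2, Kcna1 and Kcna2 are lower in every mutant than in every control, of which Klk6 alone was called, while Mbp and Mog overlap.

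Earlier stages of the lineage gave no called gene. Of 18 tested genes of newly formed oligodendrocytes, 8 had a positive and 10 a negative change (median -0.07). At an unadjusted limma p of 0.05, 3 were lower and 1 was higher, beside 2.42% and 3.27% of all loci tested. In 4 every mutant was below every control, beside 4.57% of all loci, and in 0 every mutant was above. Itpr2, a calcium release channel of the endoplasmic reticulum that marks this stage, had 1.51, 1.49 and 1.47 FPKM in mutants and 2.45, 1.98 and 1.90 FPKM in controls. Its groups did not overlap, with a change of -0.32 ± 0.08 (SE) and a limma adjusted p of 0.507. Gpr17, a receptor of cells about to differentiate, had 17.2, 15.1 and 0.622 FPKM in mutants and 0.683, 0.690 and 0.727 FPKM in controls. The third mutant thus lay below all controls while the other two lay far above them, and the change of 2.20 ± 0.83 had an adjusted p of 0.812, and from 0.0387 (without mutant 3) to 0.976 (without mutant 1) over the alternatives.

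Of 21 tested precursor genes, 9 were positive and 12 negative, with a median of -0.02. Pdgfra, the growth factor receptor that defines precursors, lay at 5.38 to 6.78 FPKM in mutants and 6.72 to 7.17 FPKM in controls. Cspg4, the NG2 proteoglycan, lay at 1.64 to 1.95 FPKM in mutants and 1.13 to 1.65 FPKM in controls. Both pairs of ranges overlapped. Tnr, a matrix protein of the oligodendrocyte lineage, had 15.4, 16.8 and 15.1 FPKM in mutants and 5.37, 8.54 and 6.11 FPKM in controls, with no overlap, a change of 1.15 ± 0.40 (SE) and a limma adjusted p of 0.74.

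The 21 tested transcription factors of the lineage had a median change of -0.02, with 7 positive and 14 negative. Sox10, whose driver carried the transactivator, had 11.1, 8.93 and 4.62 FPKM in mutants and 5.24, 12.7 and 6.91 FPKM in controls, and the groups overlapped. Myrf, the factor that switches on myelin genes, lay at 5.86 to 8.19 FPKM in mutants and 5.93 to 7.66 FPKM in controls. Olig2 had 5.93, 2.08 and 2.11 FPKM in mutants and 1.69, 0.464 and 0.900 FPKM in controls, without overlap, but its change of 1.05 ± 0.64 did not pass (limma adjusted p = 0.956). Its neighbour in function Olig1 was listed at 0 in all 3 mutants and in controls 2 and 3, and at 35.4 FPKM in control 1. An exact 0 for a gene that this lineage always uses can be a failed estimate, so a listed 0 is not read here as absence.

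The receptors themselves gave no call. Erbb3, a partner that binds neuregulin, had 6.57, 3.27 and 4.67 FPKM in mutants and 6.78, 5.63 and 7.09 FPKM in controls, and the groups overlapped (change -0.40 ± 0.24 SE, limma adjusted p = 0.953). Erbb4 lay at 4.73 to 5.67 FPKM in mutants and 5.53 to 6.77 FPKM in controls. Egfr had 2.85, 3.08 and 2.77 FPKM in mutants and 2.64, 3.32 and 3.10 FPKM in controls, a change of -0.04 ± 0.09. The labels do not say whether reads of the dnEGFR transgene were assigned to this locus, so Egfr does not check the genotype. Erbb2 stayed below the filter, at 0.427 to 0.605 FPKM in mutants and 0.316 to 0.529 FPKM in controls.

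Among the ligands, 5 were tested and none was called (median 0.07). Nrg1, the neuregulin of axons, had 0.815, 0.520 and 0.629 FPKM in mutants and 1.55, 0.699 and 1.41 FPKM in controls at its most abundant locus. The groups overlapped, and the change was -0.41 ± 0.19 (SE, limma adjusted p = 0.894). That locus held no transcript of GENCODE M21. Other tested loci of Nrg1 were not called either and had changes of both signs. Hbegf, a ligand of EGFR, had 4.07, 4.17 and 3.76 FPKM in mutants and 3.46, 3.075 and 3.42 FPKM in controls. These groups did not overlap, with a change of 0.21 ± 0.13 and an adjusted p of 0.953. Tgfa, another ligand of EGFR, lay at 7.21 to 11.8 FPKM in mutants and 6.80 to 8.83 FPKM in controls.

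Downstream of the receptors, none of 14 tested Ras and ERK kinases, 15 ERK feedback targets and 18 genes of the PI3K, Akt and mTOR pathway was called. The ERK feedback targets, which rise when the pathway is active, had a median of 0.11 with 11 positive and 4 negative. This median was 0.0046 without mutant 1 and 0.21 without mutant 3. Dusp6, an ERK phosphatase, had 12.4, 10.3 and 7.32 FPKM in mutants and 13.4, 9.39 and 4.47 FPKM in controls, and Spry2, an inhibitor of receptor signalling, had 12.4, 2.26 and 9.03 FPKM in mutants and 2.44, 4.74 and 8.385 FPKM in controls. Both overlapped widely. The immediate early genes leaned lower, with 13 of 16 negative, a median of -0.31 and no call. This median ran from -0.50 without mutant 1 to -0.13 with a pseudocount of 5. Fos had 2.91, 2.35 and 5.04 FPKM in mutants and 5.51, 4.97 and 8.76 FPKM in controls (change -0.75 ± 0.32, limma adjusted p = 0.865).

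Arl6ip1, a hairpin protein that shapes tubules of the endoplasmic reticulum, had the highest mean in mutants among the called genes. It had 62.6, 70.1 and 60.8 FPKM in mutants and 19.3, 17.2 and 24.3 FPKM in controls. The lowest mutant was far above the highest control, and the mean rose from 20.3 ± 3.6 to 64.5 ± 4.9 FPKM, 3.18-fold (change 1.63 ± 0.13 SE, limma adjusted p = 0.000487, 0.0645 with litter as a block). The locus is chr7:118118891-118129662, minus strand. Of 18 tested genes that shape the endoplasmic reticulum it was the 1 called, and 4 others had an unadjusted p under 0.05, all higher in mutants, beside 3.27% of all loci tested. Of these, Rtn2, a reticulon, had 8.52, 9.43 and 8.95 FPKM in mutants and 5.81, 6.99 and 7.77 FPKM in controls (adjusted p = 0.755). The median of the list was 0.04.

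Slc25a23, a calcium-dependent carrier that moves ATP-Mg and phosphate across the inner mitochondrial membrane, had 56.0, 53.1 and 55.5 FPKM in mutants and 25.02, 26.9 and 27.4 FPKM in controls. The spread in each group was small beside the gap, and the mean rose 2.08-fold (change 1.03 ± 0.08 SE, limma adjusted p = 0.000487, 0.0645 with litter as a block). It lies at chr17:57043711-57059863, minus strand, and overlaps Gm17168 and Crb3 on the plus strand, which did not exceed 5.29 and 0.248 FPKM in any of the 6 libraries. Sfxn3, a sideroflexin that carries serine into mitochondria, went the other way, with 8.93, 9.45 and 9.56 FPKM in mutants and 14.7, 14.3 and 14.1 FPKM in controls. Its mean fell 1.54-fold (change -0.58 ± 0.08, adjusted p = 0.0265, 0.403 with the block). These were the 2 called among 31 tested mitochondrial carriers and sideroflexins, whose median was 0.08 with 23 positive and 8 negative.

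Mgat2, the Golgi enzyme needed for complex N-glycans, had 8.28, 8.15 and 8.14 FPKM in mutants and was listed at 0 in all 3 controls (limma adjusted p = 2.83e-08, 0.000481 with litter as a block). It was also at 6.92 to 8.61 FPKM in all 6 libraries of the ErbB2V664E line, controls included. The locus is chr12:69184157-69186770, plus strand, and 74 bases from Rpl36al on the minus strand, a ribosomal protein gene that read 1.38, 1.54 and 1.15 FPKM in mutants and 0.974, 25.7 and 0.0603 FPKM in controls. No fold is given against controls listed at 0. The other 23 tested genes of N-glycan processing were not called, and the list's median was 0.03. In all, 4 called loci were listed at 0 in all 3 controls: Mgat2, the locus without a symbol, Rpl30-ps9 (2.06, 3.05 and 4.00 FPKM in mutants) and the second Fancl locus (1.56, 1.90 and 1.60 FPKM). The limma adjusted p was 0.000749 for Rpl30-ps9 and 0.00404 for this Fancl locus, and 0.0645 for either with litter as a block. Rpl30-ps9 is a ribosomal pseudogene whose reads may be shared with near-identical copies. This second Fancl locus held no transcript of GENCODE M21, so it does not stand for the annotated gene. The first locus of Fancl, a ubiquitin ligase of the Fanconi anaemia complex, had 1.89 ± 0.089 FPKM in mutants and 1.65 ± 0.11 FPKM in controls (SD, n = 3 each).

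Cdk7, the catalytic kinase in both the CDK-activating complex and TFIIH, had 2.25, 2.77 and 2.97 FPKM in mutants and 6.68, 6.37 and 6.79 FPKM in controls. No mutant reached the lowest control, and the mean fell 2.49-fold (change -1.06 ± 0.09 SE, limma adjusted p = 0.000947, 0.0663 with litter as a block). Its partners in the complex were not called: cyclin H, Ccnh, had 8.66, 9.32 and 8.35 FPKM in mutants and 8.81, 8.08 and 7.59 FPKM in controls, and Mnat1 had a change of 0.05. In 3 members besides Cdk7 every mutant was below every control, as in 4.57% of all loci tested. These were Gtf2h1 (change -0.08), Gtf2h3 (-0.12) and Gtf2h5 (-0.26, at a locus joined with Tulp4), with limma adjusted p from 0.918 to 0.992. All 3 are subunits of TFIIH, as the list was made of genes of TFIIH and of the CDK-activating complex. Of the 10 tested genes of the list, 6 had a positive and 4 a negative change, and the median was 0.03. Cdk7 lies at chr13:100702631-100730939, minus strand.

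Mettl21a, a methyltransferase that acts on heat shock protein 70, had 2.32, 2.50 and 1.68 FPKM in mutants and 0.873, 0.787 and 0.671 FPKM in controls. The mean rose 2.79-fold (change 0.83 ± 0.11 SE, limma adjusted p = 0.0265, 0.138 with litter as a block). The joined locus of B3gnt2, which extends sugar chains, and Commd1, a regulator of copper transport, had 5.01, 3.99 and 4.77 FPKM in mutants and 1.083, 1.41 and 1.13 FPKM in controls. It rose 3.80-fold (change 1.34 ± 0.12, adjusted p = 0.000903, 0.0663 with the block), and the table does not say which gene of the locus the reads came from.

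**Figure D3:**
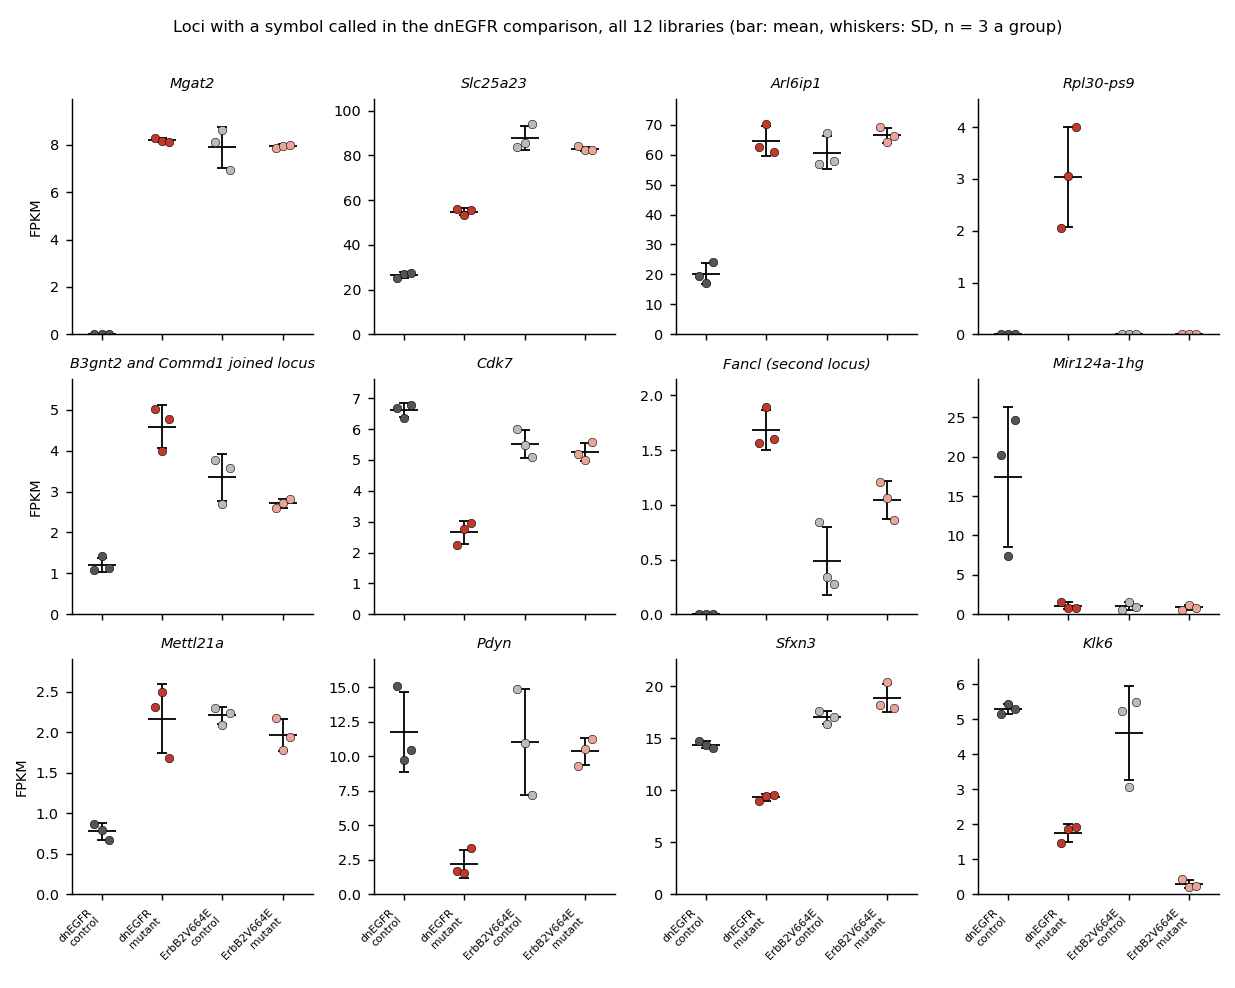
FPKM (y axes, from 0) of the 12 called loci with a symbol in all 12 libraries of the series, by group; points are libraries, bars means and whiskers 1 SD (n = 3 a group). The dnEGFR mutants (red) and controls (dark grey) do not overlap in any panel, and the ErbB2V664E libraries (pale) lie nearer the mutants in Mgat2, Arl6ip1, Mettl21a and Mir124a-1hg and above them, at 82.4 to 94.0 FPKM, in Slc25a23.

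The calls differed in how far they rested on single libraries. Mgat2, Slc25a23, Arl6ip1, Rpl30-ps9, Cdk7, the joined B3gnt2 and Commd1 locus and the second Fancl locus were called in each of 6 limma fits that left out 1 of the dnEGFR-line libraries, with adjusted p up to 0.0208. Mir124a-1hg was not called without mutant 2 (adjusted p = 0.0585). Mettl21a was called only without mutant 3 or control 1 and reached 0.0688 in the other 4 fits. Pdyn was called only without mutant 3 or control 2 and reached 0.0717. Sfxn3 and Klk6 were called only without mutant 3 (0.042 for both) and reached 0.0696 and 0.0765 without mutant 1. With litter as a block over the 12 libraries, Mgat2 was the 1 locus with a symbol that kept its call, and the fit made 3 calls in all. With the block in the 6 dnEGFR-line libraries alone, limma called 0 loci. The 12 called loci with a symbol then had adjusted p from 0.0998 (Mgat2) to 0.808 (Pdyn and Sfxn3). Slc25a23 was at 0.405, Cdk7 at 0.548 and Arl6ip1 at 0.567.

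Pdyn, which encodes prodynorphin, an opioid peptide precursor of striatal and other neurons, had 1.67, 1.54 and 3.34 FPKM in mutants and 15.1, 9.71 and 10.5 FPKM in controls. The groups were far apart, and the mean fell from 11.8 ± 2.9 to 2.19 ± 1.00 FPKM, 5.38-fold (change -2.02 ± 0.27 SE, limma adjusted p = 0.0265, 0.294 with litter as a block). Most of the striatal list had changes of the opposite sign. Of 16 tested genes of striatal projection neurons, 14 had a positive change, Pdyn was the 1 called, and the median was 0.54 beside 0.01 over all loci. The median ran from 0.33 with a pseudocount of 5 to 0.71 without mutant 2. In 4 of the 16 mutants did not overlap controls and were higher, beside 5.58% of all loci, and in Pdyn alone they were lower, beside 4.57%. Rxrg, a retinoid X receptor, had 14.5, 7.65 and 16.9 FPKM in mutants and 4.60, 7.46 and 6.46 FPKM in controls (change 0.92 ± 0.27, adjusted p = 0.586). Ppp1r1b, the dopamine signalling protein DARPP-32, had 85.7, 39.7 and 181.2 FPKM in mutants and 40.4, 49.9 and 38.5 FPKM in controls.

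The summed striatal level was 394.9, 190.9 and 450.3 FPKM in mutants 1 to 3 and 215.0, 256.0 and 162.5 FPKM in controls. Mutants 1 and 3 thus stood above all controls and mutant 2 among them. No member of the list was at 0 in all 6 libraries. The part of tissue taken with the white matter in these differences, and in that of Pdyn, was not tested. Among other peptides, Nts (neurotensin) had 7.20, 3.67 and 8.975 FPKM in mutants and 3.55, 3.63 and 2.84 FPKM in controls, with no overlap and an adjusted p of 0.835.

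Mir124a-1hg, the host transcript of a precursor of the neuronal microRNA miR-124, had 1.56, 0.839 and 0.827 FPKM in mutants and 20.3, 7.44 and 24.6 FPKM in controls. Controls were spread widely, yet the lowest control was above every mutant (change -3.02 ± 0.37 SE, limma adjusted p = 0.0149, 0.0645 with litter as a block). All 6 libraries of the ErbB2V664E line lay with the dnEGFR mutants, at 0.582 to 1.62 FPKM. General neuronal markers were not called, with 10 of 16 negative and a median of -0.08. Their summed level was 827.0 to 1233 FPKM in mutants and 1046 to 1233 FPKM in controls.

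Genes of the node of Ranvier and its flanks leaned lower, with 13 of 19 negative, a median of -0.13 and no call. In 5 of them every mutant was below every control, as in 4.57% of all loci tested. Kcna2, the axonal potassium channel Kv1.2 that sits beside the paranodes, had 1.18, 1.24 and 0.158 FPKM in mutants and 13.2, 8.16 and 5.90 FPKM in controls. Its change of -2.44 ± 0.38 (SE) had a limma adjusted p of 0.0566, and from 0.0491 (filter of 5 FPKM) to 0.299 (litter block in the 6 libraries) over the alternatives. Its partner Kcna1 (Kv1.1) had 0.899, 1.084 and 0.0444 FPKM in mutants and 1.58, 1.29 and 8.87 FPKM in controls, with an adjusted p of 0.835. Nrcam, a nodal adhesion protein, had 11.4, 15.1 and 13.9 FPKM in mutants and 17.2, 15.6 and 15.5 FPKM in controls. Cntnap1, the paranodal protein Caspr, overlapped at 23.0 to 31.5 FPKM in mutants and 22.7 to 23.5 FPKM in controls.

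Microglial genes leaned higher without a call: 19 of 23 were positive, with a median of 0.09. Without mutant 1 that median was -0.04. The summed level was 253.4, 191.1 and 247.5 FPKM in mutants and 191.2, 187.7 and 192.8 FPKM in controls. Csf1r, the receptor these cells need to survive, lay at 12.04 to 18.2 FPKM in mutants and 13.5 to 14.7 FPKM in controls. The complement gene C1qb, a chain of the C1q complex, had 14.1, 9.40 and 9.63 FPKM in mutants and 5.27, 3.89 and 3.48 FPKM in controls. The groups did not overlap, and the change of 1.20 ± 0.18 (SE) had a limma adjusted p of 0.0566, and from 0.0334 (without control 1) to 0.33 (only the 6 libraries) over the alternatives. All 6 libraries of the ErbB2V664E line, controls included, read C1qb at 8.02 to 15.2 FPKM, nearer the dnEGFR mutants than the dnEGFR controls. The other chains were not called: C1qa had 24.5, 15.4 and 18.7 FPKM in mutants and 20.6, 18.3 and 20.0 FPKM in controls, and C1qc had 8.42, 3.06 and 3.75 FPKM in mutants and 2.60, 2.78 and 3.01 FPKM in controls, of which C1qa overlapped between groups and C1qc did not.

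Markers of other cells gave no call. Astrocyte genes had a median of -0.08 over 16 tested, and Gfap, their filament protein, lay at 26.9 to 32.1 FPKM in mutants and 24.98 to 34.05 FPKM in controls. Reactive astrocyte, endothelial, ependymal and cell cycle genes had medians of 0.04, 0.06, 0.03 and 0.07. All 7 tested red blood cell genes were positive with a median of 0.36 (0.17 without mutant 2 and 0.78 without mutant 1), and their summed level was 193.6, 351.4 and 322.4 FPKM in mutants and 183.4 to 226.6 FPKM in controls. Choroid plexus genes swung within both groups, with summed levels of 505.8, 804.0 and 181.3 FPKM in mutants and 79.1, 858.0 and 752.1 FPKM in controls. Cholesterol synthesis genes, which feed myelin growth, had a median of -0.02 over 24 tested members, and fatty acid and sphingolipid genes 0.04 over 22. Genes of apoptosis and of the unfolded protein response had medians of 0.02 and -0.04 over 16 tested members each. Interferon response genes had 7 of 8 positive, a median of 0.24 and no call. With a pseudocount of 5 this median was 0.087 and with 0.1 it was 0.43.

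**Figure D4:**
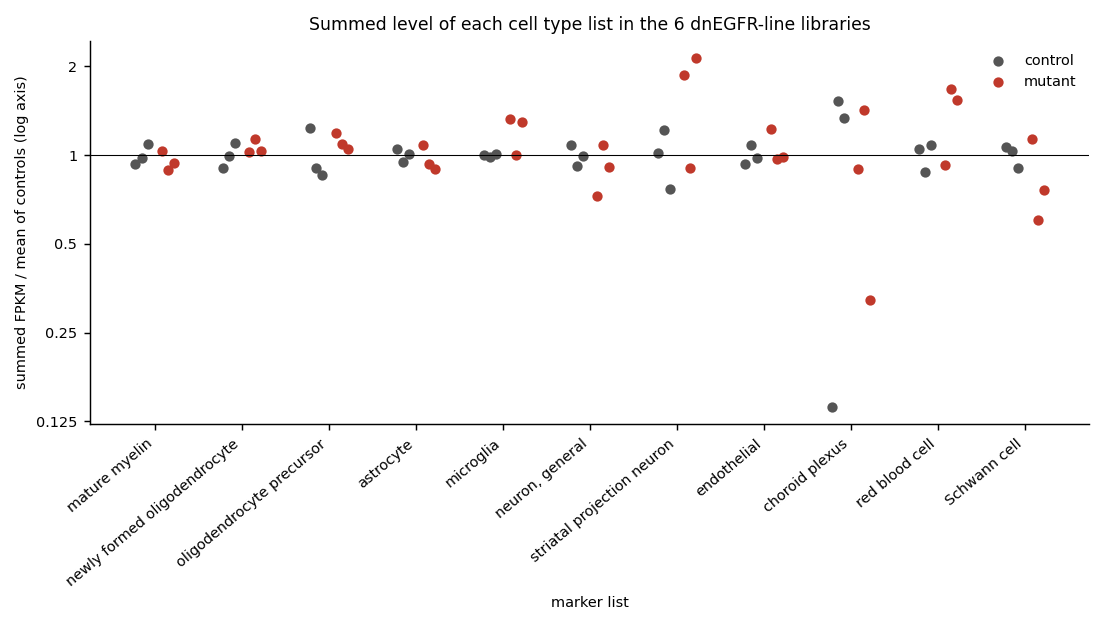
Summed FPKM of the members of 11 cell type lists in each of the 6 dnEGFR-line libraries, divided by the mean of the 3 controls (y axis, log scale); grey points are controls and red points mutants. The mature myelin and astrocyte lists stay close to 1 in every library, the striatal list is high in 2 of 3 mutants, and the choroid plexus list is low in control 1 and mutant 3.

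**Figure D5:**
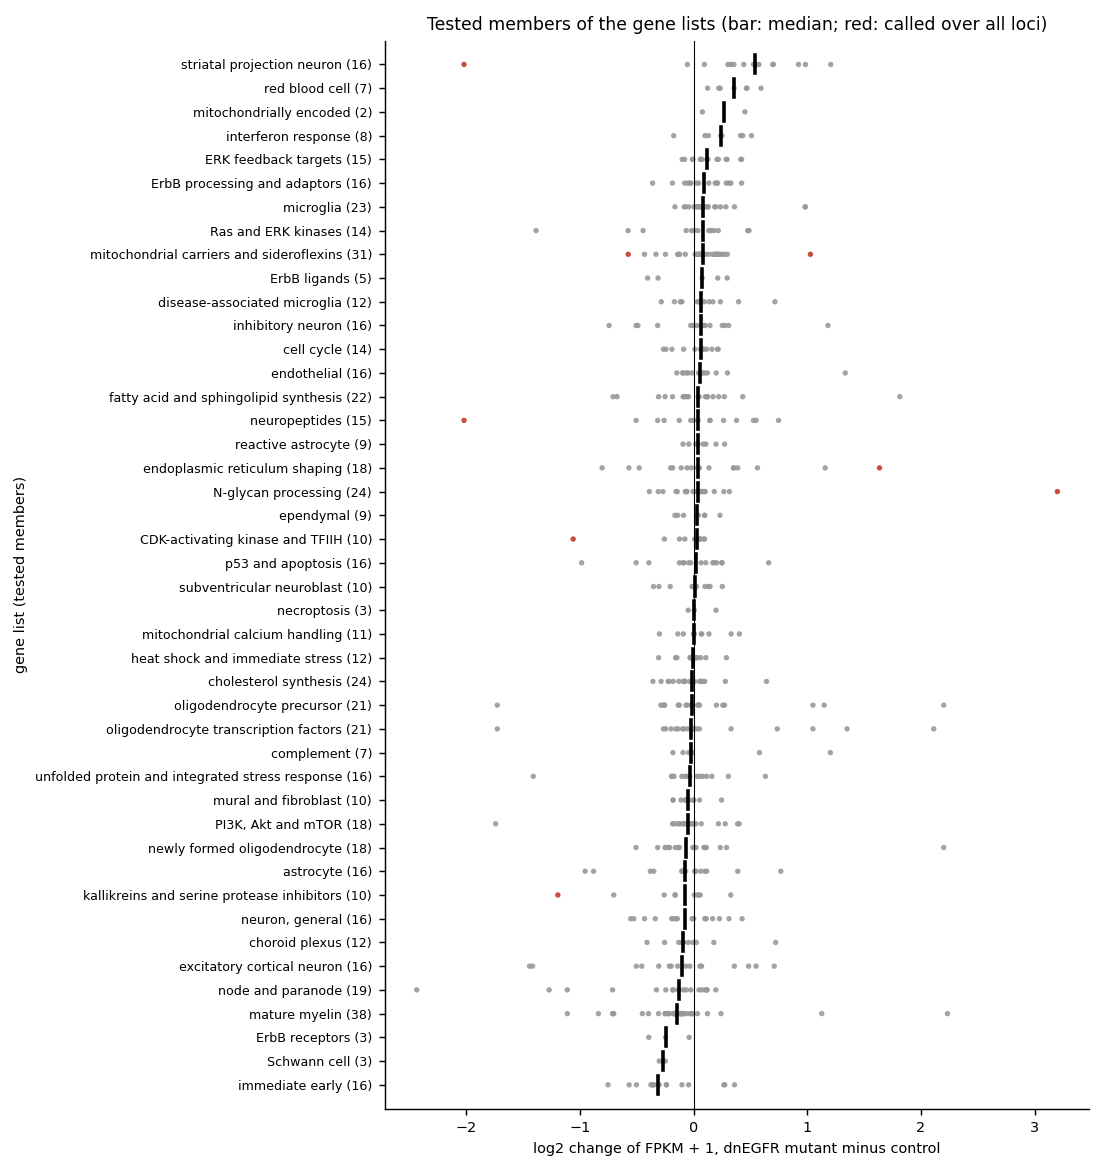
Log2 change (x axis, mutant minus control) of the tested members of 44 gene lists, 1 row per list sorted by median; the number of tested members follows each name. Grey points are members, red points members called over all loci, and black bars medians. Medians run from -0.31 for immediate early genes to 0.54 for striatal projection neurons, and 7 distinct list genes of 604 tested were called.

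Beside the calls, genes were taken by rule from the loci with exactly 1 symbol (predicted genes, pseudogenes and small RNAs set aside), a mean of at least 5 FPKM in a group, no 0 and no overlap between mutants and controls. Since lack of overlap chose them, their separation is a description. Among the 10 higher with the smallest p, Hspa13, a chaperone of the heat shock protein 70 family, had 7.51, 7.49 and 7.51 FPKM in mutants and 1.67, 1.16 and 1.52 FPKM in controls, with a limma adjusted p of 0.168, and from 0.00988 (only the 6 libraries) to 0.327 (no filter) over the alternatives. Smad3, a transducer of TGF-beta signals, had 9.60, 8.34 and 9.68 FPKM in mutants and 3.43, 3.96 and 3.26 FPKM in controls (adjusted p = 0.146, and 0.0318 to 0.578 over the alternatives). C2cd2l, a lipid transfer protein of membrane contact sites, had 14.0, 14.1 and 17.1 FPKM in mutants and 9.13, 9.32 and 9.31 FPKM in controls, with an adjusted p of 0.0565, and 0.0372 to 0.882 over the alternatives. Prkar2a, a regulatory subunit of protein kinase A, had 5.57, 7.48 and 6.85 FPKM in mutants and 2.41, 1.76 and 2.10 FPKM in controls (limma adjusted p = 0.0703, and 0.0549 to 0.761 over the alternatives).

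Col4a3bp, the ceramide transfer protein, had 12.4, 11.5 and 9.99 FPKM in mutants and 6.61, 4.97 and 4.73 FPKM in controls (limma adjusted p = 0.147, and 0.0832 to 0.522 over the alternatives). Among the 10 lower, Hopx, a homeodomain protein without DNA binding, had 3.13, 2.56 and 2.27 FPKM in mutants and 5.46, 9.59 and 9.47 FPKM in controls. Its change of -1.30 ± 0.20 (SE) had a limma adjusted p of 0.0566, and from 0.00481 (without control 1) to 0.902 (litter block in the 6 libraries) over the alternatives. Fam8a1, a cofactor of protein quality control in the endoplasmic reticulum, had 6.14, 9.25 and 5.03 FPKM in mutants and 15.1, 15.02 and 23.1 FPKM in controls, with an adjusted p of 0.0703, and from 0.0208 (without mutant 2) to 0.902 (litter block in the 6 libraries) over the alternatives. Plekhg1, a guanine nucleotide exchange factor, had 2.99, 1.62 and 3.24 FPKM in mutants and 5.30, 5.63 and 6.47 FPKM in controls (limma adjusted p = 0.112, and up to 0.902 over the alternatives, none of which called it). For C2cd2l and Fam8a1, all 6 libraries of the ErbB2V664E line lay on the mutant side of the midpoint between the dnEGFR group means. The other genes given here by this rule had libraries of that line on both sides.

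The ErbB2V664E line served as a reference for the calls. Of the 12 called loci with a symbol, all 6 of its libraries lay on the mutant side of the midpoint between the dnEGFR group means in 5 and on the control side in 4. Of the 786 loci with an unadjusted p under 0.05, its control mean was nearer the dnEGFR mutants than the dnEGFR controls in 414 (52.7%). Limma called 16 loci (0.116%) for a difference between the effects of dnEGFR and ErbB2V664E, and 4 with litter as a block. Among the 12, the difference passed for Mgat2 (adjusted p = 9.23e-07), Slc25a23 (0.0042), Arl6ip1 (0.0116), Rpl30-ps9 (0.0113), the joined B3gnt2 and Commd1 locus (0.00469) and Cdk7 (0.0233). It did not pass for Klk6, Pdyn, Sfxn3, Mettl21a, Mir124a-1hg and the second Fancl locus, where it ranged from 0.0544 to 0.352. The lines also differed in age and in days of doxycycline, which cannot be told apart from the transgene.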

How the data were processed

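RNA was measured in 12 libraries of subcortical white matter, each from 1 mouse, with 3 libraries in each of 4 groups. Per the labels' protocols, polyadenylated RNA was sequenced in paired ends, and no step that keeps the strand is named, so where genes on opposite strands overlap their reads cannot be told apart. The authors deposited 1 table of FPKM for all libraries. HISAT and StringTie are the tools that the submitters' processing notes list. Versions, genome build and annotation were not given in the sources used here. Fragment numbers were estimated from the step between low values of 14221 loci with 1 transcript.

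Loci reaching 1 FPKM in at least 3 of the 12 libraries (13803, of which 13202 carry a symbol) entered a limma 3.58.1 fit (R 4.3.3) on log2(FPKM + 1), 1 mean per group over the 12 libraries, variances moderated by empirical Bayes along a trend, two-sided p-values, Benjamini-Hochberg adjusted over all loci, threshold 0.05. The fit had 8 residual and 2.03 prior degrees of freedom, and it was tested on simulated data. P-values reflect the spread between mice within groups, pooled over the 4 groups of both lines and moderated across loci. Where all 3 controls were listed at 0, as for Mgat2, they add no spread to that estimate. The labels name each control as the littermate of 1 mutant, so litters pair the libraries. Correlations of deviations from the group means within litters 1 to 3 were 0.016, 0.0089 and 0.033.

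Where a symbol had several loci, the one with the highest mean stood for it. Named genes were every called locus with a symbol, 24 anchor genes, 10 higher and 10 lower non-overlapping loci, and the members of each of 44 lists with the smallest p or highest mean. Lists are described without a test. Some loci are not reported here. Members and lists were chosen with earlier results of these data known. Figures were made with Python 3.11.15 and matplotlib 3.10.9. Alternatives were other pseudocounts, filters, scalings, variance models, the litter block and leaving out 1 library.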

Additional observations from a re-analysis of the deposited data

Results flagged for a closer look

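For the 13 loci given here the dnEGFR effect differed from the ErbB2V664E effect in limma, by the test of the difference itself at an adjusted p of 0.05. Values are the dnEGFR change minus the ErbB2V664E change on the log2(FPKM + 1) scale. Positive differences were those of Mgat2 at 3.19, Slc25a23 at 1.10, Arl6ip1 at 1.501, the joined B3gnt2 and Commd1 locus at 1.56 and Rpl30-ps9 at 1.98, all called in the dnEGFR comparison. Slc24a2, a sodium, calcium and potassium exchanger, was at 3.43, Ssu72 at 1.497 and Tmem254c at 1.71. Negative differences were those of Cdk7 at -0.9997, Col5a3 at -1.65, 4933439C10Rik at -1.43, Gm7866 at -2.19 and Gm28933 at -3.30. Ssu72 and Gm28933 were listed at 0 in all 6 libraries of the dnEGFR line, so their values come from the ErbB2V664E line alone. Neither locus held a transcript of GENCODE M21, so this Ssu72 locus does not stand for the annotated gene. Gm7866 was listed at 0 in the ErbB2V664E controls. Tmem254c, Col5a3, 4933439C10Rik and Gm7866 had dnEGFR changes of 0.29, 0.01, -0.38 and 0.36, none of them called. Their ErbB2V664E changes were -1.42, 1.66, 1.06 and 2.55. Slc24a2 read 21.03, 53.3 and 26.6 FPKM in dnEGFR mutants and 11.1, 9.56 and 5.48 FPKM in their controls. It was not called in the dnEGFR comparison (limma adjusted p = 0.191, 0.51 with litter as a block). In the ErbB2V664E line Slc24a2 read 9.24, 5.96 and 8.54 FPKM in mutants and 25.2, 34.4 and 22.2 FPKM in controls. Its ErbB2V664E change was -1.66 (limma adjusted p = 0.0995), so the difference draws on both lines.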

How the results depend on the processing

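All counts are from limma. Pairing by litter, with litter as a block over 12 libraries, left 3 calls (3 higher, 0 lower; 744 loci at an unadjusted p of 0.05) and 4 for the difference from ErbB2V664E. The block over the 6 dnEGFR libraries left 0 calls (0 higher, 0 lower; 608 at an unadjusted p of 0.05). The 6 libraries without the block gave 22 (18 higher), 9 of them among the 13. A filter of 5 FPKM gave 5 higher, 7 lower and 7 for the difference. Leaving out loci at 0 in any library gave 4 higher and 9 for the difference. Leaving out 1 library gave 17 to 36 calls (9 to 22 higher, 5 to 18 lower) and 16 to 28 for the difference. By library left out, the calls were 25, 17 and 36 for mutants 1 to 3 and 31, 24 and 22 for controls 1 to 3. Both pseudocounts, no filter, both scalings and both variance models kept the counts within 1.5 times, from 12 to 17.

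Among 99 genes, 12 uncalled changes turned sign. Gfap was -0.019 with quantile normalization. Without 1 library at a time, Gfap ran from -0.085 (without control 2) to 0.13 and was -0.041 without mutant 2. Csf1r ran from -0.070 (without mutant 1) to 0.21. Myrf ran from -0.046 (without mutant 1) to 0.16 and was -0.031 without control 2. Cnp ran from -0.30 to 0.12 (without control 3) and was 0.045 without mutant 2. Sox10 ran from -0.25 to 0.32, its value both without control 2 and without mutant 3. Egfr ran from -0.11 to 0.014 (without control 2). The Aif1 and Lst1 locus ran from -0.27 to 0.057 (without control 3). The causes were not tested. With 3 mice a group and uneven replicates, the median standard error of 0.16 limits what can be called, and a gene that was not called is not shown to be equal.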
